A study of Mus musculus with 36 samples.

Results

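Amino acid and neurotransmitter transporters are described here as the 34 genes, of 19909 in the deposited table, whose symbol begins with Slc1a, Slc3a, Slc6a, Slc7a or Slc38a followed by a number. The astroglial glutamate transporter Slc1a3 was left out because its protein is commonly used as a surface antigen for sorting. The members were chosen by name alone: 5 of the Slc1 family, 2 of Slc3, 8 of Slc6, 11 of Slc7 and 8 of Slc38.

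These proteins carry amino acids and related solutes across membranes. Slc1 proteins take up glutamate or exchange neutral amino acids such as glutamine, Slc6 proteins use the sodium and chloride gradients to recover GABA, glycine, taurine, creatine and other amino acids, and Slc38 proteins move glutamine and small neutral amino acids together with sodium. Most Slc7 exchangers reach the cell surface only when bound to a heavy subunit, Slc3a2 or Slc3a1, whereas the cationic amino acid carriers of the same family need no such partner. In the adult brain, astrocytes clear glutamate and GABA and release glutamine, and dividing cells import glutamine, leucine and arginine, which feed growth signalling through mTORC1.

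The table holds 36 poly(A) RNA libraries, all from C57BL/6 mice 8 weeks old. In 28 of them the cells were separated by flow cytometry directly from subependymal zone tissue, the neurogenic niche along the lateral ventricles of the brain: qNSC, pNSC, aNSC and NPC1 with 4 libraries each, and NPC2, NB1, NB2 and Other with 3 each. The names follow the quiescent, primed and activated neural stem cells, progenitors and neuroblasts of the field, but the labels give only the abbreviations, with no account of the sorting gates. The remaining 8 libraries came from neurospheres, free-floating cultures of the same tissue grown with EGF and FGF: cells at passage 4 were loaded with the dye DFFDA, cultured for 4 days and sorted as DFFDA_H or DFFDA_L, with 4 libraries each. The series describes these sorted cultures as differing in how fast they proliferate; which label holds the slower cells is not stated. Strain and age were shared by all groups. The labels do not tie libraries to separate animals or cultures, so the spread that p-values rest on may be partly technical.

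Values are the deposited log2 values, whose scale resembles log2 CPM, reads scaled to a common library total. They are not divided by gene length, so each gene is compared only with itself. In sorted bulk RNA, fewer cells of a type and less RNA per cell cannot be told apart. Total reads per library are not given, so the depth is unknown; the number of genes at a library's lowest value, which is shared by its undetected genes, ran from 362 to 3932. qNSC replicate 1, with 3932 such genes, and pNSC replicate 1, with 2319, stood apart from their groups, with a best within-group correlation across genes of 0.88 and 0.91. The 10 astroglial and quiescent stem cell markers, including Gfap, Aqp4 and Aldoc, summed on the linear scale to 11050 to 12720 in qNSC and 8873 to 12140 in pNSC, against 355.3 to 983.1 in aNSC, NPC1, NPC2, NB1 and NB2. The 11 neuroblast markers, including Dcx and Stmn2, summed to 10900 to 11150 in NB2 and 7408 to 8665 in NB1, against 178.4 to 285.8 in qNSC. No defining marker of either kind was at the lowest value throughout its own group.

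Of the 34 members, 23 had a log2 value of at least 0 in at least 3 libraries of every group, and the other 11 passed in some groups. Slc38a5 and Slc6a13 passed among the fresh populations in Other alone. Among the 7 labelled stages from qNSC to NB2, 13 members had their highest mean in qNSC, 12 in NB2, 3 in aNSC, 2 each in pNSC, NPC2 and NB1, and 0 in NPC1. The extremes of the sequence held the highest means of 25 of the 34 members. The same share over all genes was not worked out, so this count is not set against a background. Some of the highest means in NB2 were themselves low, those of Slc38a5 (-1.62), Slc6a17 (0.28) and Slc1a6 (0.48). Each comparison below was tested with limma, a linear model fitted to all genes, with Benjamini-Hochberg adjustment over all genes tested, and a gene was called at adjusted p under 0.05.

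**Figure D1:**
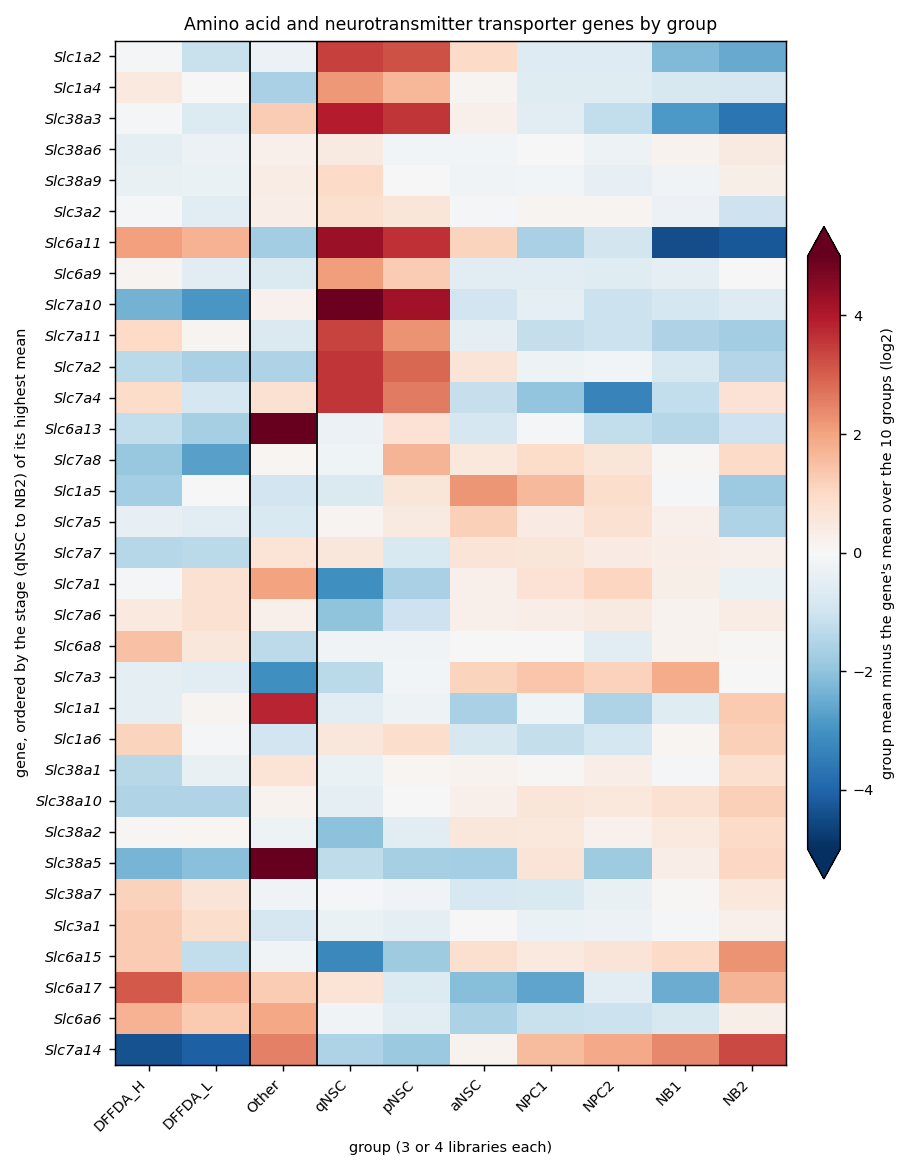
Mean of each of 33 transporter genes in each group, less that gene's mean over the 10 groups, as a colour on the log2 scale (red above, blue below, saturating at 5). Columns are the cultured groups, Other and the 7 stages; the block of 12 genes at the top has its highest stage mean in qNSC, and Slc38a5 and Slc6a13 stand out in Other.

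Set against qNSC, aNSC had less RNA of the glutamate carrier Slc1a2, the GABA carrier Slc6a11, the glycine carrier Slc6a9 and the cystine exchanger Slc7a11, and more of the glutamine carriers Slc1a5 and Slc38a2 and the cationic carrier Slc7a1. Carriers of the same substrates also moved opposite ways, with the glutamine carrier Slc38a3 and the cationic carrier Slc7a2 lower. In all, 15 members fell, against a background of 27.1% of the 17788 genes tested, and 9 rose, against 35.3%. The median change over the members was -0.69 on the log2 scale, and over all genes tested 0.19. Members called lower were thus a larger share, and members called higher a smaller share, than among all genes.

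Among the neurotransmitter carriers, Slc1a2, the main glutamate uptake carrier of astrocytes (chr2:102658659-102790784, plus strand, GRCm38), had log2 values of 7.88, 8.66, 8.37 and 8.47 in aNSC, against 10.75, 10.72, 10.88 and 10.85 in qNSC. The groups did not overlap, and the level was 5.49-fold lower in aNSC (log2 change -2.46 ± 0.18, SE; adjusted p = 9.44e-12). Slc6a11 (chr6:114131241-114249952), the GABA carrier typical of astrocytes, had 4.59, 5.54, 5.21 and 5.49 in aNSC, against 8.53, 8.50, 8.11 and 8.51 in qNSC. Every aNSC library was lower than every qNSC library, and Slc6a11 was 9.22-fold lower (adjusted p = 2.09e-05). Slc6a9, which takes up glycine, was the tightest of these: 4.99, 4.99, 5.08 and 4.96 in aNSC, against 7.69, 7.88, 7.56 and 7.49 in qNSC, a log2 change of -2.65 ± 0.13. The taurine carrier Slc6a6 averaged 3.83 ± 0.08 in aNSC and 5.24 ± 0.37 in qNSC (SD, n = 4 each) and was 2.66-fold lower. Slc6a17, a vesicular carrier of neutral amino acids in neurons, was called lower from levels near the lowest values (-3.57 ± 1.43 in aNSC and -0.76 ± 2.33 in qNSC). Its groups overlapped, and the call was lost in 8 alternatives, among them leaving out qNSC replicate 1, 2 or 4 or aNSC replicate 1 or 3, with adjusted p between 0.0526 and 0.0795 for those.

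The steepest fall of all was in Slc7a10, the carrier of small neutral amino acids such as serine and glycine: 3.38, 3.62, 3.61 and 3.54 in aNSC, against 9.26, 9.44, 9.46 and 9.48 in qNSC. That is 58.5-fold lower (log2 change -5.87 ± 0.30; adjusted p = 1.36e-14), and the libraries within either group lay close together. Slc38a3, a sodium-coupled glutamine carrier of astrocytes (chr9:107650634-107669530), had 4.59, 5.31, 5.15 and 5.39 in aNSC, against 8.70, 8.81, 8.71 and 8.87 in qNSC, 12.7-fold lower. Slc7a2, a carrier of arginine and lysine, averaged 4.08 ± 0.15 in aNSC and 7.02 ± 0.33 in qNSC, 7.64-fold lower. Slc7a4, a relative of the cationic carriers for which transport activity is not settled, averaged 1.59 ± 0.77 in aNSC and 6.30 ± 0.24 in qNSC, 26.2-fold lower. Slc38a7, a lysosomal glutamine carrier, and Slc38a9, a lysosomal arginine sensor upstream of mTORC1, fell by 0.77 and 1.15 on the log2 scale.

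Slc7a11, the exchanger that imports cystine and releases glutamate, and Slc1a4, which exchanges serine, alanine and other neutral amino acids, also fell. Slc7a11 had 2.79, 3.16, 3.13 and 3.30 in aNSC, against 6.99, 6.68, 7.07 and 7.04 in qNSC, 14.4-fold lower (log2 change -3.85 ± 0.24; adjusted p = 2.96e-13). Slc1a4 had 6.35, 6.54, 6.49 and 6.76 in aNSC, against 8.54, 8.75, 8.49 and 8.57 in qNSC, 4.15-fold lower. Neither gene overlapped between the groups. Both are among the members whose promoter carries the letters TGATGNAA, the amino acid response element through which ATF4 acts, and their windows are shown because most other genes of that response moved the opposite way, as given below. The sequences are from RefSeq (GRCm38.p6), windows of 300 bases that begin upstream of the start of the gene, read on its strand, with the motif in capitals in whichever orientation it lies:
Slc7a11 (chr3:50443564-50443863, minus strand): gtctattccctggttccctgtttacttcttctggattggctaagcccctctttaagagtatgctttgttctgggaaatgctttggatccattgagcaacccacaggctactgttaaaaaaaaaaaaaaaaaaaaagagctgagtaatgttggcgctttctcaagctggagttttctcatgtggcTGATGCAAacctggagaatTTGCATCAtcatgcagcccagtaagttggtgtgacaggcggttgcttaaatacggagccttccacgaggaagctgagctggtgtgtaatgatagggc
Slc1a4 (chr11:20332664-20332963, minus strand): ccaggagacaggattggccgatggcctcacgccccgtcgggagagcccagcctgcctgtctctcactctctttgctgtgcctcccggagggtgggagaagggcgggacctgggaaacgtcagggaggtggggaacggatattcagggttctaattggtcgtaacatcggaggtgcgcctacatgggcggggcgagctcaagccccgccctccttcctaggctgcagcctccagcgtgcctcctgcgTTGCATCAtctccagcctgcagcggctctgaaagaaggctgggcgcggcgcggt
The Slc7a11 window holds the motif in both orientations, starting at bases 185 and 204, and the Slc1a4 window holds it once, at base 247. The 23 members found in the table have 34 windows, since some genes have several. Windows of the same gene can overlap and count the same site more than once, as for Slc7a7 and Slc7a6. The amino acid response element was on either strand in 4 of the 34, from Slc1a4, Slc7a11 and Slc7a7 (3 of the 23 members), and in 3.969% of all 32851 windows. The E-box CACGTG was in 4 of the 34 (4 members) and 7.15% of all windows, and the antioxidant response element TGACNNNGC in 8 of the 34 (6 members) and 12.39% of all windows. Neither of these occurs in the windows of Slc7a11 and Slc1a4, and a match describes letters only.

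**Figure D2:**
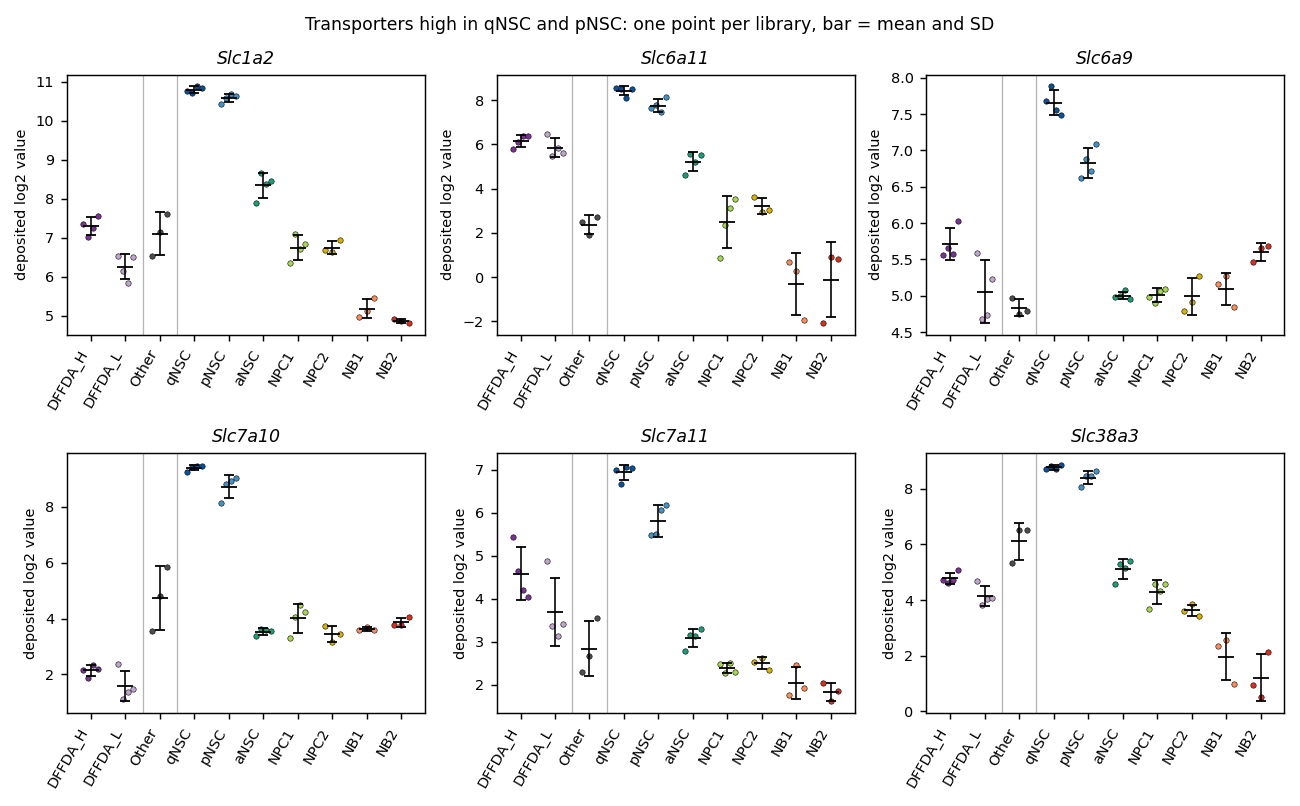
Deposited log2 values of Slc1a2, Slc6a11, Slc6a9, Slc7a10, Slc7a11 and Slc38a3 in every library (points), with the mean and SD of each group (bars). The qNSC and pNSC libraries lie above the aNSC, NPC and NB libraries in all 6 panels.

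Among members with a mean of at least 3 in the higher group, the largest rise in aNSC was that of Slc7a1, the main arginine and lysine carrier of dividing cells (chr5:148327410-148399904), with 5.02, 4.65, 4.60 and 4.87 in aNSC, against 1.90, 1.21, 0.70 and 1.98 in qNSC. It was 10.1-fold higher (log2 change 3.34 ± 0.25; adjusted p = 1.77e-11). Slc1a5, a glutamine exchanger (chr7:16781340-16798274), had 5.29, 6.00, 5.50 and 5.38 in aNSC, against 2.29, 2.56, 3.07 and 2.49 in qNSC, and Slc38a2, the sodium-coupled carrier that cells raise when amino acids run short, had 8.37, 8.44, 8.33 and 8.42 in aNSC, against 5.70, 6.01, 5.74 and 5.53 in qNSC. None of the 3 genes overlapped between the groups, and the rises of Slc1a5 and Slc38a2 came to 7.69-fold and 6.24-fold. Slc7a6, which exchanges cationic for neutral amino acids at the surface, averaged 5.36 ± 0.18 in aNSC and 3.08 ± 0.22 in qNSC (4.85-fold higher).

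Slc7a5, the large neutral amino acid exchanger that imports leucine, and its heavy subunit Slc3a2 went opposite ways. Slc7a5 had 7.47, 7.58, 7.35 and 7.51 in aNSC, against 6.33, 6.61, 6.18 and 6.57 in qNSC, 2.08-fold higher (adjusted p = 0.00268). Slc3a2 had 8.34, 8.18, 8.24 and 8.23 in aNSC, against 9.20, 9.05, 9.10 and 9.02 in qNSC, 1.79-fold lower (adjusted p = 5.7e-06). Slc3a2 also serves Slc7a6, Slc7a10 and Slc7a11, of which the first rose and the others fell. Slc38a10 rose 1.62-fold and the glutamine carrier Slc38a1 rose by 0.48 on the log2 scale; the Slc38a1 groups overlapped, and its call was lost without qNSC replicate 3 (adjusted p = 0.0821) or aNSC replicate 1 (adjusted p = 0.0503). Slc6a15, a carrier of branched-chain amino acids and proline in neurons, had 2.11, 2.47, 2.94 and 2.57 in aNSC, against 0.47, -1.53, -4.19 and -0.75 in qNSC, where the spread was wide and qNSC replicate 3 lay at its lowest value. Slc7a3, a cationic carrier of neurons, averaged 1.79 ± 0.58 in aNSC and -0.67 ± 1.24 in qNSC. Both were called higher, but a fold change from such levels depends on where each library's lowest value lies.

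**Figure D3:**
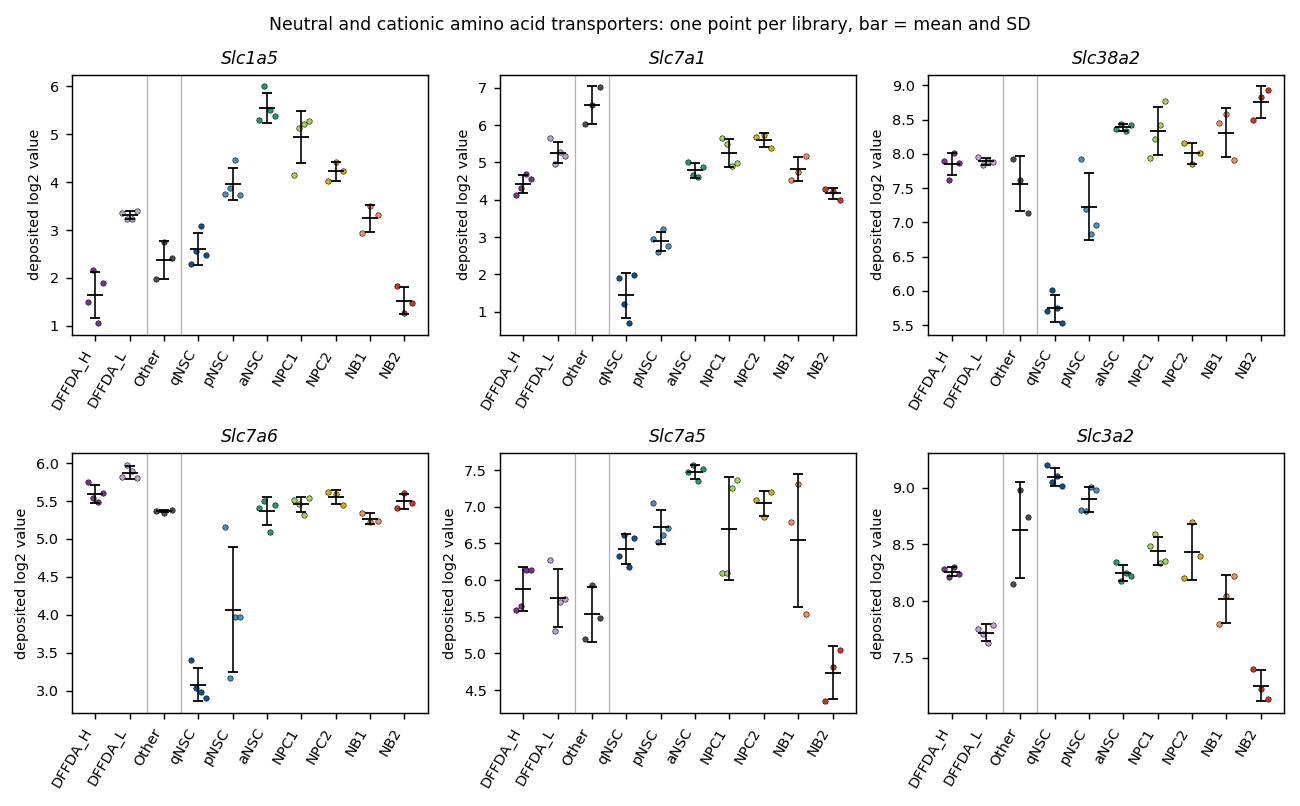
Deposited log2 values of Slc1a5, Slc7a1, Slc38a2, Slc7a6, Slc7a5 and Slc3a2 in every library (points), with the mean and SD of each group (bars). In the first 4 panels qNSC is the lowest of the stem cell groups with pNSC between it and aNSC, whereas Slc3a2 is highest in qNSC; Slc1a5, Slc7a5 and Slc3a2 are lowest in NB2.

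Set against qNSC, pNSC already had more RNA of Slc38a2, Slc1a5 and Slc7a1 and less of Slc7a11 and Slc6a9. In all, 5 members rose in pNSC (14.2% of all genes were called higher) and 2 fell (8.06% called lower), shares near those of all genes. Slc38a2 had 7.93, 7.19, 6.83 and 6.97 in pNSC, against the 5.53 to 6.01 of qNSC, a log2 change of 1.48 ± 0.21 (adjusted p = 1e-05). That is 56.1% of its log2 change between aNSC and qNSC. Slc1a5 had 3.76, 3.88, 4.46 and 3.74 in pNSC and Slc7a1 2.96, 2.60, 3.21 and 2.77, also above every qNSC library, with 46.1% and 43.1% of their changes reached. Slc7a6 and Slc38a10 rose as well, with overlapping groups. The Slc7a6 and Slc7a1 calls were lost when only the libraries of these groups were fitted (adjusted p = 0.14 for Slc7a6 and 0.0576 for Slc7a1). That of Slc38a10 was lost in 8 alternatives, among them leaving out qNSC replicate 3 or 4 or pNSC replicate 1, 2 or 3, with adjusted p between 0.0527 and 0.153 for those.

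Of the carriers that were high in qNSC, Slc7a11 (5.48, 5.52, 6.07 and 6.19 in pNSC) and Slc6a9 (6.62, 6.88, 6.72 and 7.09) already lay below every qNSC library and were called lower, by 2.19-fold and 1.77-fold. Slc1a2 averaged 10.59 ± 0.11 in pNSC and 10.80 ± 0.08 in qNSC, and Slc38a3 averaged 8.40 ± 0.24 in pNSC and 8.77 ± 0.08 in qNSC; for neither gene did the groups overlap, but the adjusted p was 0.408 and 0.426. For Slc6a11 (log2 change -0.66, 95% interval -1.82 to 0.50) no difference was detected either, and Slc1a4, with a log2 change of -0.51, missed the threshold at adjusted p = 0.0532. The share of the log2 change between aNSC and qNSC that pNSC had reached varied within both directions. Among members that fell in aNSC it ran from 8.80% for Slc1a2 and 11.6% for Slc7a10 through 20.6% for Slc6a11 and 31.1% for Slc6a9 to 84.0% for Slc38a9, and among those that rose from 28.4% for Slc7a5 to 89.5% for Slc38a1. Neither Slc38a9 nor Slc38a1 was called in pNSC against qNSC. The Slc38a9 share depends on the libraries that stood apart. Slc38a9 was at 2.29 in pNSC replicate 1, against 4.34 to 4.91 in the others. In qNSC replicate 1 it was at 5.85, against 4.43 to 4.92. Centring the libraries on a trimmed mean gave 4 calls each way in place of 5 higher and 2 lower, and fitting only the libraries of these groups gave 2 higher and 5 lower. Without pNSC replicate 4, 13 members were called in place of 7.

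Between aNSC and pNSC, 13 members fell (19.9% of all genes) and 8 rose (28.4%). The falls were again led by Slc7a10 (36.5-fold), Slc7a4 (13.3-fold), Slc38a3 (9.77-fold) and Slc7a11 (6.59-fold), followed by Slc6a11 (5.83-fold) and Slc1a2 (4.73-fold). Slc7a1 rose 3.74-fold, Slc1a5 3.00-fold, Slc7a6 2.45-fold and Slc38a2 2.23-fold. The rises of Slc7a5 and Slc7a7, a cationic and neutral exchanger, and of the low genes Slc6a15 and Slc7a14 were less firm. The Slc7a5 call was lost without pNSC replicate 2, 3 or 4 or aNSC replicate 1, 2 or 4 (adjusted p between 0.0595 and 0.0818), and the Slc7a7 call without pNSC replicate 1 (adjusted p = 0.146) or 2 (0.0516). Without pNSC replicate 1 the Slc6a15 call was lost too (adjusted p = 0.0995). That of Slc7a14 was lost under 11 alternatives, including without pNSC replicate 1 or 3 or any aNSC library, with adjusted p between 0.0546 and 0.215 for those, and with the replicate number as a block it had an adjusted p of 0.0522. The call of Slc38a7 among those that fell was lost without pNSC replicate 1, 3 or 4 or aNSC replicate 1, 2 or 3 (adjusted p between 0.052 and 0.0952).

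The genes around this pathway moved in both directions in aNSC against qNSC. Of 25 genes of the amino acid response (ATF4 and its known targets, transporters left out), 16 rose and 5 fell, with a median log2 change of 1.13 against 0.19 over all genes. Asns, asparagine synthetase, was at 6.10 in aNSC and 0.58 in qNSC, the alanine tRNA ligase Aars rose 2.39-fold and the mitochondrial serine enzyme Shmt2 3.81-fold. In pNSC against qNSC, 11 of these 25 rose and 0 fell, including Asns (3.29 in pNSC and 0.58 in qNSC). Of 20 enzymes of glutamate, glutamine and GABA metabolism, 6 rose and 10 fell in aNSC, and the falls were led by the proline oxidase Prodh (log2 change -2.23), Oat (-2.16) and the GABA transaminase Abat (6.43 in aNSC and 8.62 in qNSC). Of 34 genes of mTORC1 and its amino acid sensors, 6 rose and 8 fell, with Sesn3 at 4.42 in aNSC and 6.53 in qNSC. Among 20 further amino acid and vesicular carriers tested, 5 rose, such as the mitochondrial aspartate and glutamate exchanger Slc25a13 (3.21), and 4 fell, such as Slc43a2 (-1.98) and the lysosomal cystine exporter Ctns (-2.34).

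Markers of other cells differed between these groups as well. All 10 astroglial markers fell in aNSC against qNSC, as did 5 of 8 mural and fibroblast markers, whose sums were 4.66 to 12.1 in aNSC and 155.1 to 210.8 in qNSC, and 5 of 9 markers of mature neurons, with sums of 41.2 to 65.4 in aNSC and 331.2 to 491.8 in qNSC. In the same comparison 1 mural and fibroblast marker and 1 marker of mature neurons were called higher. The sums of microglial markers were 339.2 to 771.2 in qNSC, 545.8 to 1004 in pNSC and 265.9 to 396.8 in aNSC; 5 of 12 were called higher in pNSC against qNSC. In the same comparison 10 of 11 neuroblast markers rose, with sums of 651.2 to 2083 in pNSC and 178.4 to 285.8 in qNSC. The part of these cells in the transporter results was not tested. With both libraries that stood apart left out, 26 members were called in aNSC against qNSC, 18 in aNSC against pNSC and 7 in pNSC against qNSC.

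Past aNSC, NPC1 had still less RNA of Slc1a2 and Slc6a11. Against aNSC, 5 members fell in NPC1 and 0 rose, where 6.48% of all genes were called lower and 6.24% higher. Slc1a2 had 6.35, 7.11, 6.71 and 6.84 in NPC1, against the 7.88 to 8.66 of aNSC, 3.02-fold lower (log2 change -1.59 ± 0.18; adjusted p = 1.64e-06). Slc6a11 had 0.87, 2.33, 3.13 and 3.53 in NPC1, against 4.59 to 5.54 in aNSC, 6.70-fold lower, with NPC1 libraries spread far apart but all below aNSC. Slc1a4 fell 1.66-fold, a call lost without NPC1 replicate 1 (adjusted p = 0.0662). Slc7a11 fell 1.63-fold at adjusted p = 0.0493, which ended when any NPC1 library or aNSC replicate 2, 3 or 4 was left out (adjusted p between 0.0711 and 0.137). By contrast Slc38a2, Slc38a1, Slc6a9, Slc3a2 and Slc7a1 had log2 changes between -0.09 and 0.47, none past the threshold; for Slc6a9 the 95% interval was -0.27 to 0.28.

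No member was called between NPC2 and NPC1 by limma, where 0.202% of all genes were called higher and 1.14% lower. At an unadjusted p under 0.05 there were 4 members, all with the lower mean in NPC2: Slc7a4, Slc1a5, Slc1a1 and Slc38a5. With libraries weighted by their quality 7 were called, and without NPC2 replicate 2 there was 1. No share of all genes is set beside these counts. Slc1a2 averaged 6.75 ± 0.16 in NPC2 and 6.75 ± 0.32 in NPC1, with a 95% interval of -0.41 to 0.40 for the log2 change. Slc1a5 was at 4.03, 4.41 and 4.23 in NPC2 and at 4.15, 5.13, 5.23 and 5.27 in NPC1 (adjusted p = 0.309). The highest stage means of Slc7a1 (5.60 ± 0.19) and Slc7a6 (5.56 ± 0.09) were in NPC2 but differed little from those of NPC1 (5.26 ± 0.38 and 5.46 ± 0.10).

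In NB1 against NPC2, 4 members fell and 1 rose (3.88% and 3.78% of all genes). Slc6a11 had 0.69, 0.28 and -1.93 in NB1, against 3.61, 2.93 and 3.04 in NPC2, a log2 change of -3.51 ± 0.65 (adjusted p = 0.00085). Slc38a3 had 2.34, 2.57 and 0.99 in NB1, against 3.61, 3.85 and 3.42 in NPC2, and Slc1a2 had 4.97, 5.13 and 5.45, against 6.68, 6.63 and 6.93. All NB1 libraries were lower for these 3 genes; Slc38a3 fell 3.16-fold, a call lost without NB1 replicate 3 (adjusted p = 0.0532), and Slc1a2 2.95-fold. The 1.96-fold fall of Slc1a5 (adjusted p = 0.0444) was lost when any of the 6 libraries was left out (0.0622 to 0.208). The member that rose was Slc7a4, at 1.39, 1.76 and 1.35 in NB1, against -0.33, 0.36 and -1.80 in NPC2.

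In NB2 against NB1, 7 members rose (10.4% of all genes), among them Slc38a1 and Slc6a6, and 3 fell (14.2%), Slc7a5, Slc3a2 and Slc1a5. Slc38a1, the glutamine carrier of neurons, had 8.01, 7.94 and 7.86 in NB2, against 6.90, 6.95 and 7.36 in NB1, 1.82-fold higher. The taurine carrier Slc6a6 had 5.57, 5.65 and 5.89 in NB2, against 4.55, 4.45 and 4.83 in NB1, and was 2.13-fold higher. No library of NB2 overlapped NB1 for either gene. Slc6a11 was at -0.13 ± 1.70 in NB2 and -0.32 ± 1.41 in NB1 (SD, n = 3 each). Slc1a1, the glutamate carrier of neurons, averaged 2.57 ± 0.34 in NB2 and 0.63 ± 0.31 in NB1, and the glycine carrier Slc6a9 5.60 ± 0.12 in NB2 and 5.09 ± 0.22 in NB1. The calls of both depended on single libraries: that of Slc1a1 ended when any of the 6 was left out (adjusted p between 0.0504 and 0.105), and that of Slc6a9 without NB1 replicate 3, NB2 replicate 2 or NB2 replicate 3 (0.059 to 0.105). Slc7a4 (3.41, 3.45 and 3.54 in NB2) and the low gene Slc6a17 (0.45, 0.11 and 0.28 in NB2, against -4.56, -4.75 and -2.43 in NB1) also rose; the Slc6a17 call was lost with values below 0 set to 0 (adjusted p = 0.333).

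The 3 that fell were the leucine exchanger, its heavy subunit and the glutamine exchanger. Slc7a5 had 4.35, 4.82 and 5.05 in NB2, against 6.79, 7.31 and 5.54 in NB1, 3.50-fold lower (log2 change -1.81 ± 0.34; adjusted p = 0.000236). Slc3a2 had 7.40, 7.22 and 7.13 in NB2, against 7.80, 8.05 and 8.22 in NB1, and Slc1a5 had 1.83, 1.27 and 1.47, against 2.94, 3.50 and 3.31. Each NB2 library was lower than each NB1 library for all 3, by 1.70-fold for Slc3a2 and 3.32-fold for Slc1a5. Slc38a2, in contrast, was at 8.49, 8.83 and 8.94 in NB2 and 8.45, 8.58 and 7.91 in NB1, with no difference past the threshold (95% interval of the log2 change -0.05 to 0.93). In the same comparison 12 of the 25 amino acid response genes fell and 0 rose, led by the serine synthesis enzymes Phgdh (3.89 in NB2 and 6.47 in NB1) and Psat1 (4.03 in NB2 and 6.64 in NB1). All 6 activated stem cell markers, among them Mki67 and Mcm2, fell in NB2 as well, with sums of 289.3 to 306.9 in NB2 and 1550 to 1728 in NB1. Gad1, the enzyme that makes GABA, was at 8.68 in NB2 and 6.56 in NB1.

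The population labelled Other was set against the average of the 7 group means from qNSC to NB2. Here 11 members rose, against 25.9% of all genes, and 12 fell, against 28.4%. The 11 include Slc38a5 and Slc6a13, whose calls were bound to appear, as given below. Slc38a5, a glutamine and serine carrier, was at 5.29, 6.46 and 6.60 in Other, while 17 of the 25 libraries of the named populations lay at their lowest value and the highest of them was 0.93. Slc6a13, a carrier of GABA and taurine found in brain barriers, was at 2.73, 4.91 and 4.04 in Other, and again 17 of the 25 lay at their lowest value, the highest being 0.78. Since these genes passed the filter among the fresh populations through Other alone, a difference was bound to appear; no fold change is given against levels that mostly lie at the lowest value.

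Slc1a1, Slc6a6 and Slc7a1 were present in most groups and still highest in Other. Slc1a1 had 4.54, 5.61 and 5.06 in Other, against at most 2.85 in any of the 25 libraries, with a log2 change of 4.31 ± 0.49 (adjusted p = 9.89e-08). Slc6a6 had 6.98, 7.96 and 7.16 in Other, against at most 5.89, and was 6.35-fold higher than the mean of the named populations. Slc7a1 had 6.03, 6.55 and 7.03, against at most 5.72, and was 5.27-fold higher. Slc38a3 (6.12 ± 0.67 in Other) and Slc38a1 (7.84 ± 0.13) were higher than that mean too, by 2.56-fold and 1.46-fold, with libraries of the named populations on both sides. The call of Slc3a2 (1.22-fold higher) was lost without Other replicate 2 (adjusted p = 0.513) or 3 (0.194), among others, that of Slc6a17 without any Other library (0.0843 to 0.131), that of Slc7a14 without Other replicate 1 (0.207) or 3 (0.13), and that of Slc7a4 without Other replicate 1 (0.0893) or 2 (0.135). By narrow margins the Slc3a2 call also ended without NPC2 replicate 1 or 3, NB1 replicate 1 or NB2 replicate 3 (adjusted p 0.0505 to 0.0517), that of Slc6a17 without NPC2 replicate 3, NB1 replicate 1 or 2 or NB2 replicate 2 (0.05 to 0.0518), and that of Slc7a14 without aNSC replicate 1, NPC1 replicate 3, NPC2 replicate 2, NB1 replicate 1 or 2 or NB2 replicate 3 (0.0501 to 0.0522). Slc6a17 changed sign, to -0.037 on the log2 scale, when values below 0 were set to 0.

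Lower in Other were Slc1a4, with 4.78, 4.97 and 4.61 against at least 5.26 in the named populations, 3.43-fold below their mean, and the cationic carriers Slc7a3 and Slc7a2. Slc7a3 was at -3.02, 0.06 and -4.19 in Other, the last being the lowest value of its library, with a log2 change of -3.63 that became -4.85 without Other replicate 2, -2.73 without Other replicate 3 and -1.35 with values below 0 set to 0. Slc7a2 was at 0.63, 1.53 and 3.53, with a log2 change of -2.18 that became -3.00 without Other replicate 3 and -1.55 without Other replicate 1. Both calls were kept in these alternatives. Slc1a5 (2.38 ± 0.39 in Other) was 2.54-fold and Slc6a9 (4.84 ± 0.12) 1.87-fold below the mean. That mean averages high and low groups. Slc1a5 was lower in NB2 (1.52) than in Other, and Slc6a9 averaged 4.99 to 5.09 in aNSC, NPC1, NPC2 and NB1. Slc1a2 (7.10 in Other) and Slc7a11 (2.85) were called lower but lay above the means of NPC1, NPC2, NB1 and NB2. Without Other replicate 1 the lower calls of Slc1a2 (adjusted p = 0.253) and Slc7a11 (0.142) were lost, without Other replicate 2 those of Slc6a11 (0.099) and Slc7a11 (0.0567), and without Other replicate 3 those of Slc3a1 (0.25) and Slc6a8 (0.0903). All 10 endothelial markers, among them Pecam1, Esam and Ly6c1, were called higher in Other. They summed to 833.2, 2341 and 1877 in its 3 libraries, against 0.626 to 15.3 in the named populations, where Cdh5 was at the lowest value throughout NPC2 and Kdr throughout NB1. Also higher than the average of the named populations were 10 of 12 microglial, 10 of 11 neuroblast, 6 of 8 mural and fibroblast and 4 of 5 red cell markers. These sums were not particular to Other. Neuroblast markers summed to 6759 to 9777 in Other and 10900 to 11150 in NB2. The microglial sums overlapped those of pNSC, the mural and fibroblast sums those of qNSC and the red cell sums those of NB2. Other replicate 1 had the lowest endothelial sum of the 3 and also the lowest values of Slc38a5, Slc6a13, Slc1a1, Slc6a6 and Slc7a1. Its microglial (698.2), mural and fibroblast (54.43), red cell (44.57) and astroglial (692.6) sums were the lowest too, and its neuroblast sum (9777) the highest. The part of endothelial or other cells in these levels was not tested. The vesicular glutamate carrier Slc17a6 was at 5.09 in Other and -1.43 over the named populations.

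**Figure D4:**
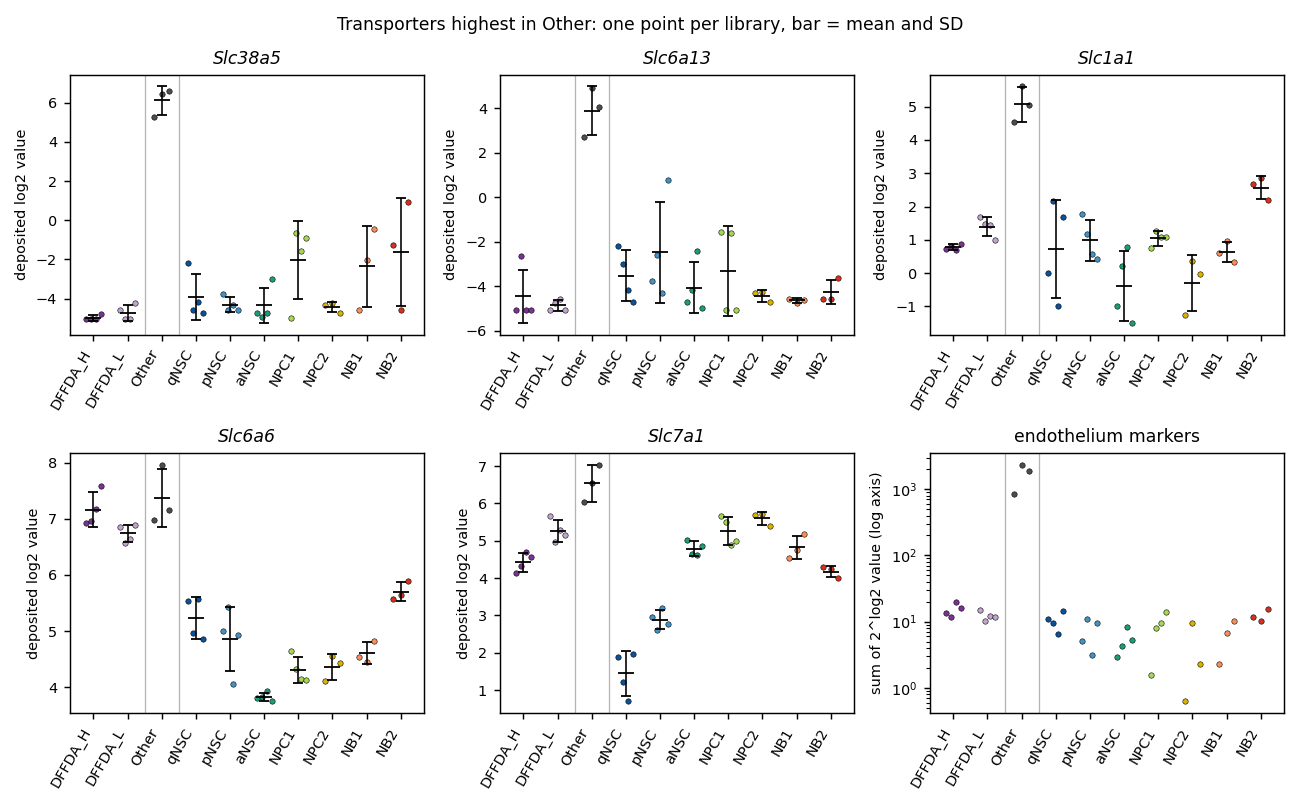
Deposited log2 values of Slc38a5, Slc6a13, Slc1a1, Slc6a6 and Slc7a1 in every library (points), with the mean and SD of each group (bars), and the sum of 10 endothelial markers on a log axis. The 3 Other libraries lie above all 25 libraries of the named populations in every panel, and Slc6a6 is nearly as high in the DFFDA_H libraries.

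In the neurosphere cultures, DFFDA_H cells had more RNA of Slc6a15, Slc1a2 and Slc6a9 and less of Slc1a5, Slc38a1 and Slc7a1 than DFFDA_L cells. Carriers of the same substrates moved both ways: of the glutamate carriers Slc1a2 rose and Slc1a1 fell, and of the glutamine carriers Slc38a3 rose and Slc38a1 fell. Of 30 members tested, 14 rose in DFFDA_H, where 21.6% of the 15956 genes were called higher, and 5 fell, where 22.3% were called lower. The median change was 0.42 over the members tested and -0.01 over all genes. Slc38a5, Slc6a13, Slc7a14 and Slc7a8 passed in no cultured group and were not tested there. Slc1a6, counted among the 14, passed in the cultures through DFFDA_H alone, so its rise is not independent of the filter.

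Slc6a15 showed the largest rise, with 3.16, 3.28, 3.00 and 2.50 in DFFDA_H, against 0.63, 0.75, 0.23 and 0.41 in DFFDA_L (5.59-fold). Slc1a2 had 7.35, 7.01, 7.26 and 7.56 in DFFDA_H, against 6.54, 6.16, 5.85 and 6.50 in DFFDA_L, 2.05-fold higher (log2 change 1.03 ± 0.15; adjusted p = 0.000173). The groups did not overlap for either gene. The creatine carrier Slc6a8 averaged 4.31 ± 0.35 in DFFDA_H and 3.40 ± 0.23 in DFFDA_L (SD, n = 4 each; 1.88-fold higher), and Slc3a2 8.26 ± 0.04 in DFFDA_H and 7.72 ± 0.07 in DFFDA_L (1.45-fold). Slc7a4 rose 3.56-fold, Slc6a17 2.53-fold, Slc6a9 1.57-fold, Slc38a3 1.56-fold, Slc38a7 1.44-fold, Slc1a4 1.43-fold, and Slc6a6 and Slc3a1 1.34-fold each. Slc3a1 is the heavy subunit best known from cystine uptake in the kidney. The rise of Slc1a6, a glutamate carrier known from cerebellar neurons, was lost without DFFDA_H replicate 1, 2 or 4 or DFFDA_L replicate 2 or 3 (adjusted p between 0.0532 and 0.0778), and that of Slc6a6 without DFFDA_L replicate 2 (0.0586) or 3 (0.0563). The Slc1a6 call also ended with values below 0 set to 0 (adjusted p = 0.0735). Slc7a11 was at 5.44, 4.65, 4.22 and 4.04 in DFFDA_H and 4.88, 3.36, 3.14 and 3.41 in DFFDA_L, where replicate 1 lay apart, and missed the threshold at adjusted p = 0.0919. Replicate 1 was the highest library of DFFDA_H too, and the fit does not pair libraries.

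The largest fall was that of Slc1a5, with 1.49, 2.16, 1.06 and 1.89 in DFFDA_H, against 3.35, 3.23, 3.24 and 3.40 in DFFDA_L, 3.15-fold lower (log2 change -1.66 ± 0.23; adjusted p = 0.0001). Slc38a1 had 5.41, 5.69, 5.92 and 5.93 in DFFDA_H, against 6.72, 6.88, 6.83 and 6.71 in DFFDA_L, 2.06-fold lower, and Slc7a1 4.13, 4.31, 4.69 and 4.55 in DFFDA_H, against 5.65, 4.95, 5.29 and 5.16 in DFFDA_L, 1.79-fold lower. None of the 3 overlapped between the groups. The smaller falls of Slc7a6 (1.21-fold) and Slc1a1 (log2 change -0.62) ended in several alternatives: for Slc7a6 without DFFDA_H replicate 2 or 3 or DFFDA_L replicate 2 or 3 (adjusted p 0.061 to 0.083), and for Slc1a1 without any DFFDA_H library or DFFDA_L replicate 1, 2 or 3 (0.0513 to 0.105). Both calls also ended with the replicate number as a block (adjusted p = 0.0516 for Slc7a6 and 0.0659 for Slc1a1). Slc38a2 had a log2 change of -0.04 with an interval of -0.23 to 0.14, and Slc7a5 of 0.12 with an interval of -0.30 to 0.55. Of the 6 activated stem cell markers, 3 fell in DFFDA_H (Mki67, Top2a and Mcm2), and of 8 astroglial markers tested 4 rose and 1 fell. The GABA enzymes Gad1 and Abat were 4.43-fold and 1.99-fold higher, and of the amino acid response genes 5 rose and 5 fell.

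**Figure D5:**
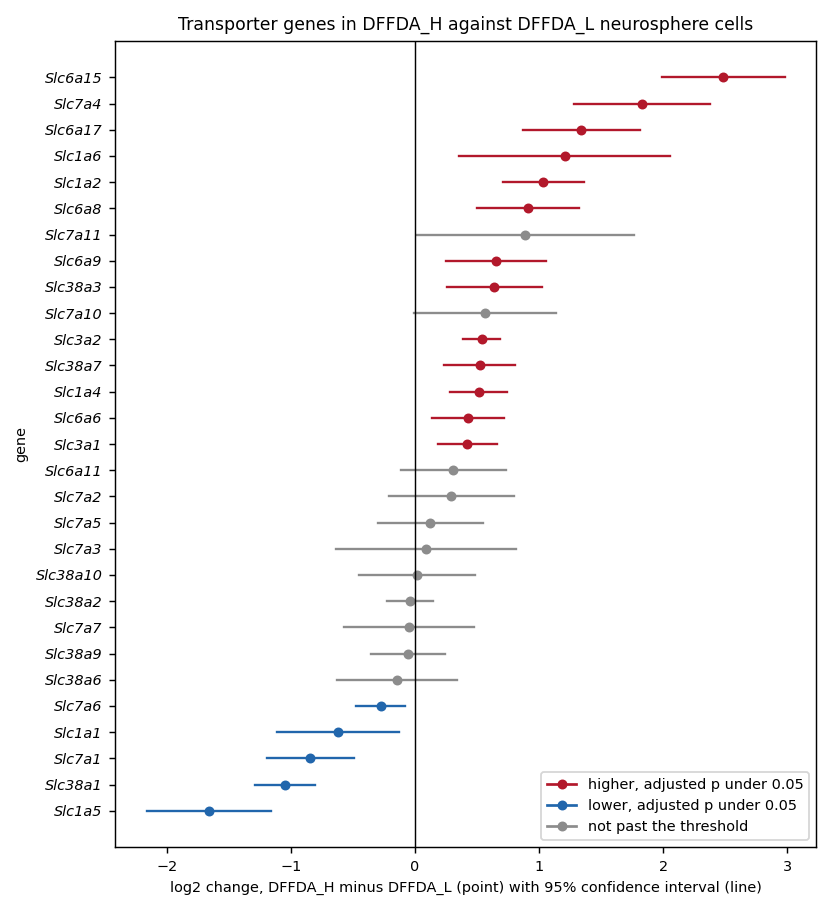
Log2 change of each of 29 tested transporter genes in DFFDA_H against DFFDA_L (points) with 95% confidence intervals (lines), ordered by size. The 13 genes shown past the threshold on the higher side run from Slc6a6 and Slc3a1 up to Slc6a15, and the 5 on the lower side end with Slc1a5.

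DFFDA_L was also set against aNSC; culture, passage, sort and origin cannot be told apart in this comparison. Over 34 members, 6 rose (31.4% of the 19158 genes tested) and 16 fell (38.7%). The taurine carrier Slc6a6 had 6.85, 6.57, 6.64 and 6.90 in DFFDA_L, against 3.81, 3.82, 3.93 and 3.75 in aNSC, 7.53-fold higher (log2 change 2.91 ± 0.22; adjusted p = 2.3e-13). Slc38a7 rose 2.73-fold, Slc3a1 1.82-fold and Slc7a6 1.42-fold, the last a call lost without aNSC replicate 3 (adjusted p = 0.103) or DFFDA_L replicate 2 (0.0705) or 3 (0.0565). Slc1a5 had the 3.23 to 3.40 given above in DFFDA_L, against 5.29 to 6.00 in aNSC, 4.72-fold lower, and Slc1a2 was 4.23-fold and Slc7a5 3.30-fold lower, with no overlap. Slc7a14, a lysosomal member of the cationic carriers, was at -4.03, -2.42, -4.18 and -2.66 in DFFDA_L and at 0.60, 1.28, 1.04 and 0.83 in aNSC. Slc7a8, another light chain for neutral amino acids, averaged -1.43 ± 0.39 in DFFDA_L and 1.84 ± 0.40 in aNSC. Slc38a2 and Slc38a1 fell 1.41-fold and 1.43-fold, and no difference was detected for Slc6a9 (interval -0.27 to 0.38) or Slc1a4 (-0.49 to 0.22). The fall of Slc7a3 was lost without aNSC replicate 4 (adjusted p = 0.0645) or DFFDA_L replicate 1 (0.065). All 12 microglial markers and 10 of 11 neuroblast markers were lower in DFFDA_L than in aNSC, 4 of 10 astroglial markers were higher and 4 lower, and 3 of 5 oligodendrocyte precursor markers were higher, with sums of 778.2 to 1619 in DFFDA_L and 106.4 to 172.4 in aNSC. Of the neuroblast markers 1 was higher. The part of these cell types in the transporter results was not tested.

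The least variable member was Slc38a6, a little-studied relative of the glutamine carriers, whose group means lay between 1.46 in DFFDA_H and 2.36 in qNSC and which was called in no comparison. Slc38a9 was called in aNSC against qNSC and in no other comparison, with means from 3.66 in NPC2 to 5.03 in qNSC, and Slc3a1 ran from 3.65 in Other to 5.76 in DFFDA_H. Slc38a10, a member with no settled substrate, had its lowest stage mean in qNSC (6.15) and its highest in NB2 (7.79). Slc7a14 ran from -1.06 in pNSC to 4.07 in NB2. Its low end was loosely set, at -1.06 ± 2.03 in pNSC and -0.77 ± 2.16 in qNSC (SD). In pNSC replicate 1 it lay at the lowest value.

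The kit does not mark strand, so reads from a gene and from a partner on the opposite strand cannot be told apart. By GENCODE M21, exons of 11 members overlap such a partner and their values are uncertain to that extent. P2rx6, the partner of Slc7a4, followed the same course, with means of 6.98 in qNSC, 2.92 in aNSC, -0.07 in NPC2 and 3.57 in NB2, where Slc7a4 had 6.30, 1.59, -0.59 and 3.47. Gm13872, which overlaps Slc1a2, was at 4.27 in aNSC and 8.07 in qNSC, and Gm17114 and Ccdc24, which overlap Slc6a9, were at 2.35 and 2.27 in aNSC, against 7.18 and 6.52 in qNSC. Lrp3, the partner of Slc7a10, was at 7.17 in aNSC and 8.44 in qNSC, a smaller difference than that of Slc7a10. The partner of Slc1a1, 4430402I18Rik, was also highest in Other (5.53, where Slc1a1 averaged 5.07). It was at 3.68 in NB2 and 2.67 in NB1, so the Slc1a1 values in these groups are uncertain. Slc38a3, Slc6a11, Slc7a11, Slc1a4, Slc1a5, Slc38a2 and Slc7a1 have no such overlap.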

How the data were processed

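Poly(A) RNA was amplified with a SMARTer Ultra Low kit, made into libraries with Nextera XT, neither of which marks strand, and sequenced on a NextSeq system, per the labels' protocols. Per the submitters' processing notes, the authors used HISAT2, featureCounts, limma, Trimmomatic, cutadapt and FastQC, with GRCm38 and mm10 as builds; the notes give no roles, versions or filters. Their deposited log2 values cover 19909 Ensembl genes in 36 libraries, and 1770 blank rows were dropped here. The unit was worked out from the values: in each column 2 raised to the log2 values sums to 987637 to 987910, with medians of 3.53 to 3.56, so the columns resemble log2 CPM after quantile normalization. With that normalization, changes in total RNA cannot be seen. No read totals are given, so intervals cover the spread between libraries only.

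Linear models with 1 mean per group were fitted in R 4.3.3 with limma 3.58.1, using eBayes with its trend and robust options: 28 fresh libraries (17788 genes), 8 cultured libraries (15956 genes), and all 36 for DFFDA_L against aNSC (19158 genes). A gene was tested where some group had 3 or more libraries with a log2 value of 0 or above. Adjustment was by Benjamini-Hochberg over all genes tested, with calls under 0.05. The model was tested on simulated data. Alternatives were other scaling, weights, filters, low values, sets of libraries, the replicate block and leaving out each library; leaving out both qNSC replicate 1 and pNSC replicate 1 was added after seeing the data. Same-numbered libraries deviated together, with every correlation over 0.1, in 1 of 9 comparisons checked (aNSC against pNSC: 0.24, 0.14, 0.20 and 0.22). In DFFDA_H against DFFDA_L the correlations were 0.07, 0.49, 0.38 and 0.19. The reported fits pair no libraries, in these comparisons either, and the replicate number enters only as the block alternative.

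The members, gene lists and the rule for named genes were chosen with earlier results of these data known. By that rule, values came first for the 6 largest called changes each way per comparison, with a mean log2 of at least 3 in the higher group, and for 13 fixed members. Other lists are described by counts, with up to 3 called genes named. The lists were 26 further carriers, 20 metabolic enzymes, 25 amino acid response genes, 37 mTORC1 genes and cell type markers. Coordinates are from GENCODE M21 (GRCm38), which matched all 34 members, and promoter sequences from RefSeq. For 1 member, counted among the 34 and in the counts of calls, results are not reported here.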

Additional observations from a re-analysis of the deposited data

Results flagged for a closer look

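In 162 sets of 4 libraries, over 27 named members, 9 had a library far from the other 3; by chance about 1 set in 20 would. Values are log2. Slc1a5 was at 4.15 in NPC1 replicate 1, below 5.13 to 5.27 in the others, and Slc38a7 at 2.96 in NPC1 replicate 2, below 3.52 to 3.60. In qNSC, Slc6a11 was at 8.11 in replicate 3, below 8.50 to 8.53, and Slc7a10 at 9.26 in replicate 1, below 9.44 to 9.48; both gaps are small beside the changes of these genes. Slc7a11 was at 4.88 in DFFDA_L replicate 1, above 3.14 to 3.41, and Slc38a10 at 5.70 in DFFDA_H replicate 4, above 4.85 to 4.97. The other 3 lie near the lowest values: Slc38a5 at -2.99 in aNSC replicate 4 and -4.79 in DFFDA_H replicate 4, and Slc6a13 at -2.65 in DFFDA_H replicate 2.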

How the results depend on the processing

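Of 136 calls of members over the 10 comparisons, 102 were kept under every alternative run and 34 were lost under at least 1; calls that a single library decided are named above. With library weights the count of members called moved to 13 in NPC1 against aNSC (5 as reported), 7 in NPC2 against NPC1 (0), 14 in NB1 against NPC2 (5) and 17 in NB2 against NB1 (10). It moved to 10 in NPC1 against aNSC when only the libraries compared were fitted, and to 11 in pNSC against qNSC (7) with values below 0 set to 0; the cause was not tested. The shares of all genes called under the alternatives are not given, here or above. These counts are therefore not read as results about the members. Slc6a17 in Other reversed to -0.037 with values below 0 set to 0, a setting that removes the low values its change rests on. Leaving out 1 library at a time gave 7 to 13 members in pNSC against qNSC, 18 to 21 in aNSC against pNSC, 23 to 26 in aNSC against qNSC, 4 to 5 in NPC1 against aNSC, 0 to 1 in NPC2 against NPC1, 3 to 4 in NB1 against NPC2 (3 without NB1 replicate 3), 8 to 10 in NB2 against NB1, 18 to 24 in Other, 15 to 21 in DFFDA_H against DFFDA_L and 20 to 22 in DFFDA_L against aNSC. With the replicate number as a block, 10 members were called in pNSC against qNSC, 21 in aNSC against pNSC, 24 in aNSC against qNSC, 5 in NPC1 against aNSC, 0 in NPC2 against NPC1, 5 in NB1 against NPC2, 10 in NB2 against NB1, 22 in Other, 18 in DFFDA_H against DFFDA_L and 22 in DFFDA_L against aNSC. Same-numbered libraries correlated between -0.51 and 0.49. In aNSC against pNSC, where same-numbered libraries deviated together but the reported fit is unpaired, the block ended the call of Slc7a14 and of no other member. In DFFDA_H against DFFDA_L the block ended the calls of Slc7a6 and Slc1a1. Fitting only the libraries compared could not differ from the reported fit for Other and for DFFDA_H against DFFDA_L. Values near a library's lowest value, as for Slc38a5, Slc6a13, Slc6a17 and Slc1a6, limit what can be detected.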
